A study of Homo sapiens with 4 samples.

Results

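The SLC25 family is the group of nuclear-encoded carrier proteins that move metabolites, nucleotides, ions and cofactors across the inner mitochondrial membrane. Its members were taken by name, as the genes of the deposited table whose symbol begins with SLC25A and a number. That gave 46 names, of which 3 antisense RNAs (SLC25A5-AS1, SLC25A21-AS1 and SLC25A25-AS1) and 2 pseudogenes (SLC25A24P1 and SLC25A1P5) were dropped. The 41 remaining carriers, out of 18375 genes in the table, all passed the filter on low values. SLC25A2, SLC25A27, SLC25A31, SLC25A41, SLC25A47, SLC25A52 and SLC25A53 have no entry in the table and were not analysed here.

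The inner membrane is closed to most charged molecules, so the substrates of respiration, the ADP and phosphate used by ATP synthase and the ATP it makes all cross it through carriers. A carrier of this family is built from a repeated unit and works mostly as an exchanger, opening in turn to the matrix and to the space between the membranes. In skeletal muscle the adenine nucleotide and phosphate carriers are among the most abundant proteins of the inner membrane, and rhabdomyosarcoma is a tumour of cells with a skeletal muscle programme.

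RNA sequencing of polyadenylated RNA was done on RD, an established line of fusion-negative rhabdomyosarcoma, labelled wild type in all 4 libraries and grown in DMEM with serum. The parental group (2 libraries) was untreated, and the resistant group (2 libraries) is a derivative of the line selected with vincristine, a tubulin-binding drug that stops cells in mitosis. Selection began at 1 to 1.5 nM, a dose that killed about 80 to 90% of cells, and went on for 9 to 12 months in dose steps of 10 to 20%, until the half-maximal inhibitory concentration was at least 100-fold higher. Whether the replicates were separate cultures or separate selections is not stated, so the p-values measure the spread between these libraries alone, which may be technical. Exposure to the drug and months in culture cannot be told apart in a single derivative.

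Between 58861281 and 67690557 reads per library were recovered from the normalized counts, a normalized count being a gene's reads divided by its library's size factor. The replicates of a group were close, with an estimated coefficient of variation of 2.38% between libraries, and small differences therefore passed the test throughout the table. Of 8 muscle genes looked up to check the line, 7 had an entry. Of these, 6 were higher in resistant cells at a limma adjusted p below 0.05, beside 32.7% of all genes tested. The median log2 fold change of the 7, resistant over parental, was 0.70. MYOD1, the myogenic master regulator, did not pass and was present at 15213 to 16936 normalized counts in every library. The muscle intermediate filament gene DES stood at 18253 and 18247 normalized counts in parental and 49389.7 and 51167 in resistant libraries, and its part in the carrier results was not tested. Of 8 defining genes of other cell types, PTPRC, PECAM1, ALB and HBB had no entry, and the 4 others (LYZ, GFAP, KRT5 and EPCAM) were low, with LYZ at 5.8 to 29.2 and EPCAM at 49.6 to 87.6 normalized counts. LYZ was higher in resistant cells (log2 fold change 1.27, limma adjusted p = 0.0115), and GFAP, KRT5 and EPCAM did not pass. In bulk RNA, fewer cells of a kind and less RNA per cell cannot be told apart.

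Resistant cells differed from parental cells in 33 of the 41 carriers, in both directions and mostly by little. At a limma adjusted p below 0.05, 15 carriers were higher and 18 lower, and 8 did not pass. Over all 18330 genes tested, 66.9% passed that threshold, 32.7% higher and 34.2% lower, so the family's 80.5% is read against a high background. Among genes with a mean of at least 100 normalized counts the shares were 83.8% for the carriers (31 of 37) and 77.2% for all genes. The median log2 fold change of the carriers, resistant over parental on the scale of log2 of the normalized count plus 1, was -0.03, against 0.00 for all genes, and the median size of a change was 0.25 against 0.36. Altogether 7 carriers passed the threshold with a change of 1.5-fold or more (17.1%, against 29.3% of all genes). At 2-fold or more, 2 called carriers were higher (8.96% of all genes), 1 was lower (6.57%), and both together compare with 15.5%. Of the 33 calls, 15 were for a change of less than 1.2-fold. In 39 of the 41 carriers (95.1%) the parental and resistant libraries did not overlap, which held for 82.1% of all genes, and the exceptions were SLC25A14 and SLC25A18.

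**Figure D1:**
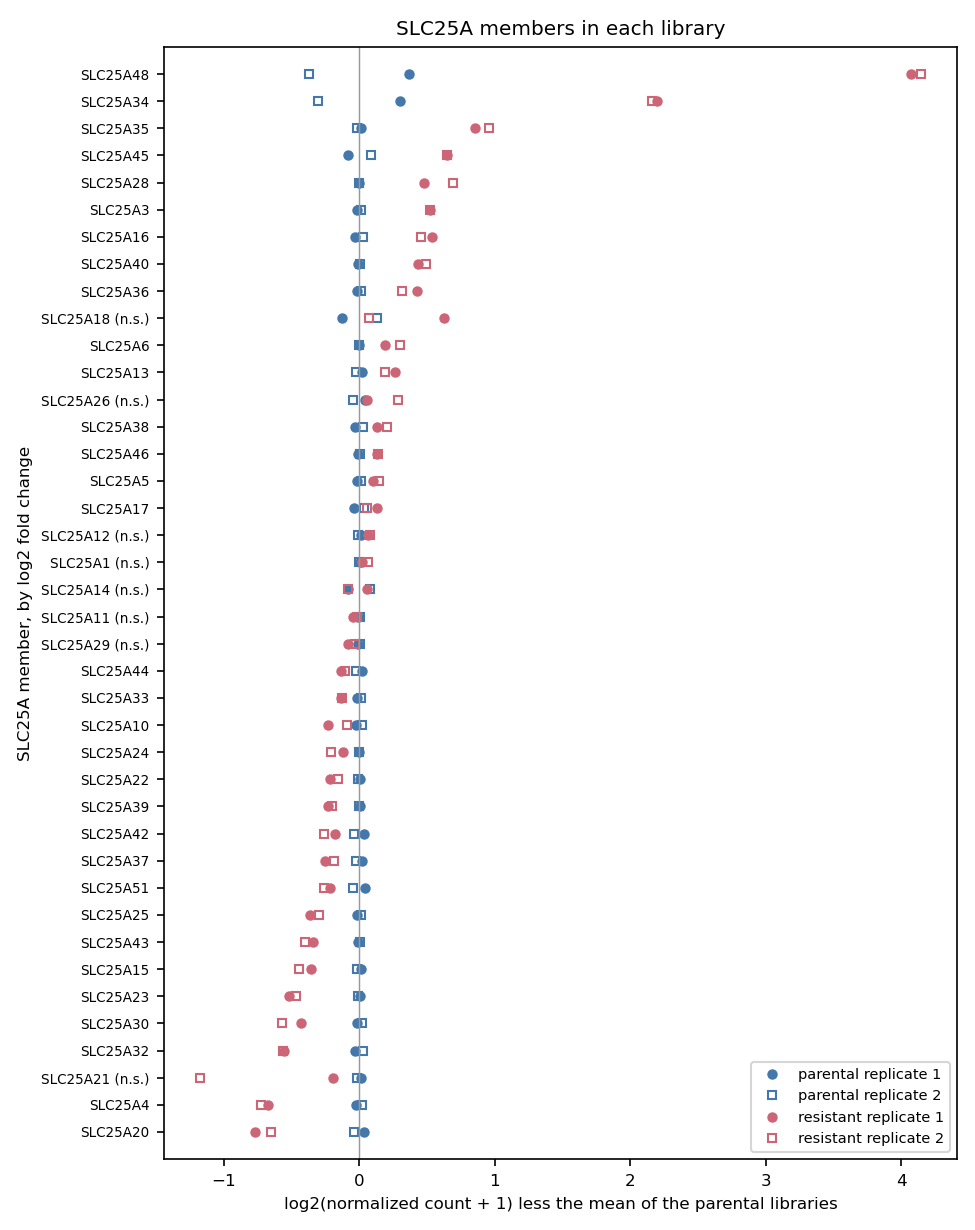
Difference of each of 40 carriers from its mean in the parental libraries, on the log2(normalized count + 1) scale (horizontal axis), with the carriers on the vertical axis in order of log2 fold change. Each point is 1 library (blue parental, red resistant, circles replicate 1, squares replicate 2), and n.s. marks the 8 carriers that did not pass. Most carriers lie within 0.5 of 0, while SLC25A48 (4.11) and SLC25A34 (2.18) stand far to the right.

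The differences that stood up to the strictest tests involved fewer carriers. When the test asked for a change beyond 1.2-fold (limma treat), 9 carriers were higher (18.4% of all genes) and 6 lower (18.6%), beside 37.1% of all genes in either direction. With a replicate dispersion fixed at 0.01 (edgeR), a wider spread than these libraries show, 9 were higher (22.2% of all genes) and 8 lower (21.2%), beside 43.3% in either direction. In all, 15 carriers kept their call in every alternative fit in which they were tested. Among them were SLC25A48, SLC25A34, SLC25A35, SLC25A45, SLC25A28, SLC25A3, SLC25A16, SLC25A40 and SLC25A36 on the higher side and SLC25A20, SLC25A4, SLC25A32, SLC25A30 and SLC25A23 on the lower side. SLC25A48 and SLC25A34 are below the mean of 100 normalized counts and were not tested in the fit that required it. Against 1.2-fold 18 called carriers lost their call, and with the fixed dispersion 16 did. In fits without 1 library, the remaining library of its group was assumed to vary like the pair of the other group, so a p from such a fit shows how a call depends on a library and is not a test of its own.

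As a whole the family took a slightly larger part of the RNA in resistant cells, and the part came from its most abundant carriers. The 41 carriers held 0.230 and 0.232% of the reads in the parental and 0.250 and 0.251% in the resistant libraries. Levels were compared between carriers per kilobase of annotated exon, as normalized count per kilobase. On that scale SLC25A5 was the most abundant carrier (12113 in parental cells), followed by SLC25A6 (7111), SLC25A3 (2749.6) and SLC25A1 (2063), while SLC25A48 was the least abundant at 0.992. These 4 leading carriers, which exchange ATP for ADP, import phosphate and export citrate, made up 54.1 and 54.4% of the family's summed level per kilobase in parental and 59.1 and 60.1% in resistant libraries. SLC25A3 alone went from 6.17 and 6.24% to 8.59 and 8.38%. With each carrier's longest coding transcript as its length, SLC25A5, SLC25A6 and SLC25A3 kept the first places and SLC25A39 came next, so the order below the leading 3 depends on the length used.

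**Figure D2:**
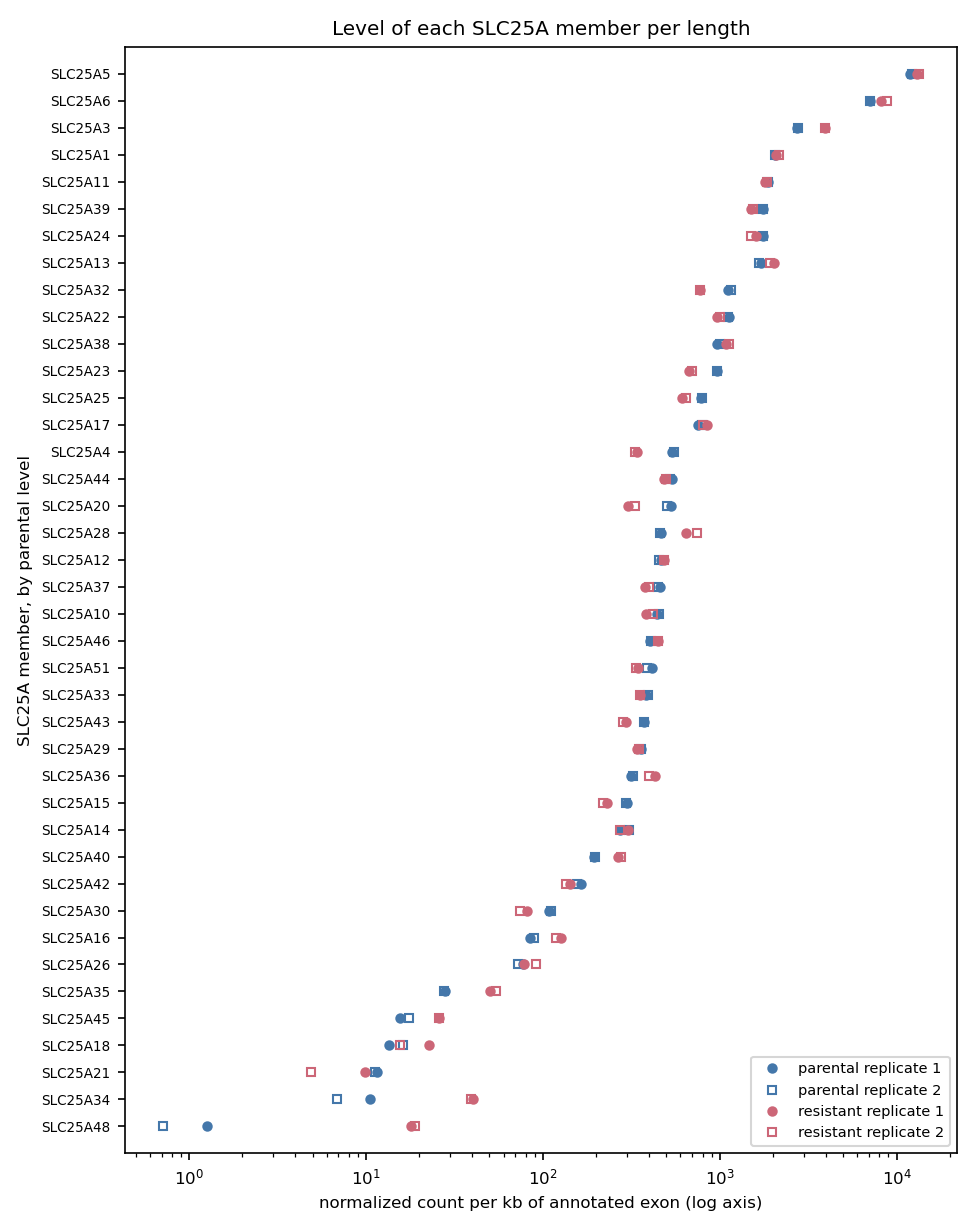
Level of 40 carriers in each library as normalized count per kilobase of annotated exon (horizontal log axis), with the carriers on the vertical axis in order of parental level. Blue points are parental and red points resistant libraries, and levels run from 0.992 for SLC25A48 to 12113 for SLC25A5 in parental cells.

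The adenine nucleotide carriers exchange matrix ATP for cytosolic ADP, and their 3 measured genes did not move together: 2 rose and 1 fell. Over all genes 32.7% were higher and 34.2% lower. Both rises lost their call against 1.2-fold and with a dispersion fixed at 0.01 (SLC25A5 and SLC25A6, edgeR adjusted p = 0.509 and 0.152). SLC25A4 (ANT1; chromosome 4, 185143241 to 185150382, plus strand) is the isoform known from heart and skeletal muscle. It stood at 2598 and 2690.2 normalized counts in parental and 1656 and 1602 in resistant libraries. Both resistant libraries were far below both parental ones, a log2 fold change of -0.70 ± 0.05 (SE, n = 2 per group, limma adjusted p = 3.00e-13), or 1.62-fold lower. The 20 nearest genes of SLC25A4 had a median of -0.31, with 16 below 0, and less that median it was at -0.39. SLC25A5 (ANT2; chromosome X, 119468400 to 119471319, plus strand), the isoform associated with proliferating cells, had 17945 and 18394 against 19482 and 20140.2 normalized counts. The groups were separate but close, and the log2 fold change was 0.12 ± 0.03 (limma adjusted p = 0.000565, and 0.0726 without parental replicate 1). SLC25A6 (ANT3; chromosome X, 1386152 to 1392724, minus strand, in the pseudoautosomal region), a broadly expressed isoform, had 15394 and 15383 against 17585 and 19006 normalized counts. Its rise of 0.25 ± 0.03 on the log2 scale (limma adjusted p = 1.91e-07) was larger than the difference between the resistant libraries.

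The balance among the isoforms shifted accordingly, although SLC25A4 was a small part of it in every library. Of the summed level per kilobase of the 3 genes, SLC25A4 held 2.73 and 2.79% in parental and 1.59 and 1.47% in resistant libraries. SLC25A6 held 36.3 and 35.7% against 37.9 and 39.0%, and SLC25A5 61.0 and 61.5% against 60.5 and 59.6%. The ratio of SLC25A4 to SLC25A5 was 0.0448 and 0.0453 in parental and 0.0263 and 0.0246 in resistant libraries, a change of -0.82 in the log2 ratio. With 2 libraries against 2 an exact permutation test of a ratio cannot go below p = 0.333, so ratios are given as separate or overlapping values. None of SLC25A4's 50-base exonic words, 0.944% of SLC25A6's and 4.57% of SLC25A5's occurred in another annotated gene.

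SLC25A3 (chromosome 12, 98593591 to 98606379, plus strand), which brings phosphate into the matrix for ATP synthesis, had the strongest rise among the abundant carriers. It had 24216 and 24704 normalized counts in parental and 35075 and 35171 in resistant libraries. The replicates of each group lay close together and the groups far apart, with a log2 fold change of 0.52 ± 0.03 (limma adjusted p = 2.27e-15), or 1.44-fold. The genes around SLC25A3 were higher too: 19 of its 20 nearest tested genes had a log2 fold change above 0, with a median of 0.59. Measured against that median, SLC25A3 was at -0.07, and the part of the region in the result was not tested.

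The calcium-dependent carriers that exchange ATP-magnesium for phosphate, and so set the size of the matrix adenine nucleotide pool, were all 3 lower. Over all genes 34.2% were lower. Only SLC25A23 kept its call in the strictest tests. SLC25A24 and SLC25A25 lost theirs against 1.2-fold and with a dispersion fixed at 0.01 (edgeR adjusted p = 0.383 and 0.0607). SLC25A23 (chromosome 19, 6436079 to 6465203, minus strand) had 4699 and 4665 normalized counts in parental and 3271 and 3394 in resistant libraries. It fell by 0.49 ± 0.04 on the log2 scale (limma adjusted p = 9.64e-12), and its 20 nearest genes had a median of -0.47, with 3 above 0. SLC25A25 had 3863 and 3947 against 3043 and 3188 normalized counts and fell by 0.33 ± 0.04 (limma adjusted p = 5.77e-08), with neighbours at a median of -0.11. SLC25A24, the most abundant of the group per kilobase, had 11776 and 11767 against 10814 and 10185 normalized counts. Its fall of 0.17 ± 0.03 (limma adjusted p = 7.40e-05) was close to the median of -0.21 of its neighbours. The ratio of SLC25A23 to SLC25A24 per kilobase was 0.553 and 0.549 in parental and 0.419 and 0.462 in resistant libraries, without overlap. The ratio of SLC25A25 to SLC25A24 was also separate, at 0.448 and 0.458 against 0.384 and 0.427.

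Among the 8 amino acid carriers, 2 rose, 3 fell and 3 did not pass, and the median log2 fold change was 0.01. Over all genes 66.9% passed. SLC25A13, the aspartate/glutamate carrier citrin of the malate-aspartate shuttle, was the most abundant of them per kilobase. It had 6342 and 6156 against 7516 and 7149 normalized counts and rose by 0.23 ± 0.04 (limma adjusted p = 2.09e-06). Its paralogue SLC25A12 (aralar), the form typical of excitable tissue, had 2394 and 2358 against 2493 and 2511 normalized counts and did not pass (log2 fold change 0.07, limma adjusted p = 0.129). The ratio of SLC25A12 to SLC25A13 was 0.271 and 0.275 in parental and 0.238 and 0.252 in resistant libraries. SLC25A38, a glycine carrier needed for heme synthesis in red cell precursors, rose by 0.17 (limma adjusted p = 0.00124, and 0.0611 without parental replicate 1), from 2621 and 2726 to 2929 and 3077 normalized counts.

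SLC25A15, the ornithine carrier of the urea cycle, showed the strongest fall of the amino acid group. It had 551 and 541 against 426 and 402 normalized counts and fell by 0.40 ± 0.08 on the log2 scale (limma adjusted p = 0.000103), while 16 of its 20 neighbours on chromosome 13 were above 0, with a median of 0.23. The glutamate carrier SLC25A22 had 5243 and 5169.5 against 4479.8 and 4666 normalized counts and fell by 0.19 (limma adjusted p = 6.46e-05). SLC25A44, which imports branched-chain amino acids, fell by 0.12 (limma adjusted p = 0.0104, and 0.202 without parental replicate 1). The second glutamate carrier, SLC25A18, had 63.8 and 76.5 against 108 and 73.5 normalized counts, and its groups overlapped. Its limma adjusted p was 0.132, and 0.0122 in the fit without resistant replicate 2, the library that lay within the parental range. The ratio of SLC25A22 to SLC25A18 was 83.8 and 68.9 in parental and 42.2 and 64.8 in resistant libraries, with a wide spread in both groups. The basic amino acid carrier SLC25A29 had 2668 and 2686 against 2529.9 and 2615 normalized counts and did not pass (limma adjusted p = 0.238).

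Of the 4 carriers of citric acid cycle intermediates, 1 fell and 3 did not pass, with a median log2 fold change of -0.10. Over all genes 66.9% passed. The citrate carrier SLC25A1 had 4336 and 4312 against 4384 and 4529 normalized counts (log2 fold change 0.04, SE 0.04, limma adjusted p = 0.313). The oxoglutarate carrier SLC25A11, the other membrane step of the malate-aspartate shuttle, had 4992 and 5022 against 4843 and 4963 (log2 fold change -0.03, SE 0.04, limma adjusted p = 0.47). The groups did not overlap in either gene, and the differences were about the size of their standard errors. The dicarboxylate carrier SLC25A10 had 1157 and 1196 against 1002 and 1105 normalized counts and fell by 0.16 (limma adjusted p = 0.0208). That call was lost without parental replicate 1 (0.0584), parental replicate 2 (0.169) or resistant replicate 1 (0.185). SLC25A10 also shares 46.6% of its exonic bases with the gene AC139530.2 on the same strand, so its counts are uncertain. SLC25A21, the oxodicarboxylate carrier, had 42.5 and 41.8 against 36.8 and 18.1 normalized counts. The resistant libraries differed more from each other than one of them did from the parental ones, and the limma adjusted p was 0.0518, or 0.00227 without resistant replicate 1. In recovered reads SLC25A21 had 86 against 53 over the libraries of each group, a ratio of 0.638 with an exact 95% interval of 0.444 to 0.908 for counting error alone.

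SLC25A20 (chromosome 3, 48856931 to 48898993, minus strand) exchanges acylcarnitines for carnitine and so admits long-chain fatty acids to oxidation in the matrix. It had 1057 and 1005 normalized counts in parental and 605 and 658 in resistant libraries, with both resistant values well below. The fall was 0.71 ± 0.07 on the log2 scale (limma adjusted p = 4.53e-10), or 1.63-fold, and the 20 nearest genes had a median of 0.09, with 13 above 0. Of the 5 genes looked up for the carnitine shuttle, 2 fell, 1 rose and 2 did not pass, beside 34.2% lower and 32.7% higher over all genes. All 5 differed less than SLC25A20. CRAT, the carnitine acetyltransferase, fell by 0.52 and CPT1C, named as a brain-type carnitine palmitoyltransferase, by 0.26. CPT1A, the liver-type enzyme, rose by 0.15. The rise of CPT1A did not hold without parental replicate 1 (limma adjusted p = 0.169).

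Of the 9 carriers of cofactors and nucleotides, 3 rose, 5 fell and 1 did not pass, with a median log2 fold change of -0.13. Over all genes 32.7% were higher and 34.2% lower. SLC25A32 (chromosome 8, 103398635 to 103415189, minus strand), the mitochondrial folate carrier, had 4086 and 4263 against 2847 and 2825 normalized counts. It fell by 0.56 ± 0.04 on the log2 scale (limma adjusted p = 1.58e-12), with neighbours at a median of -0.31 and 3 of 20 above 0. Its counts are uncertain, since 69.7% of its exonic bases lie in AC012213.5 on the same strand. Of the 5 mitochondrial folate enzymes looked up beside it, 4 fell and 1 rose, beside 34.2% lower and 32.7% higher over all genes. Of the 4 falls the smallest was a log2 fold change of -0.11. The others were -0.75 for ALDH1L2, -0.54 for MTHFD1L and -0.50 for MTHFD2L, enzymes that release or recast one-carbon units. SHMT2, which makes those units from serine, rose by 0.61.

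The pyrimidine nucleotide carriers SLC25A33 and SLC25A36 moved apart. SLC25A36 (chromosome 3, 140941830 to 140980961, plus strand) had 3258 and 3322 against 4435 and 4093 normalized counts and rose by 0.37 ± 0.04 (limma adjusted p = 1.00e-08). SLC25A33 had 1473 and 1508 against 1361 and 1364 and fell by 0.13 (limma adjusted p = 0.0293). The fall of SLC25A33 was lost without parental replicate 1 (0.102) or parental replicate 2 (0.216), and 20.7% of its 50-base exonic words occur in other genes. The ratio of SLC25A33 to SLC25A36 per kilobase was 1.21 in both parental and 0.821 and 0.891 in resistant libraries.

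SLC25A16 (chromosome 10, 68477999 to 68527474, minus strand), a carrier linked to coenzyme A, had 666 and 694 against 990.1 and 933 normalized counts and rose by 0.50 ± 0.07 (limma adjusted p = 1.83e-07). SLC25A42, the established coenzyme A carrier, had 743 and 709 against 641 and 608 and fell by 0.22 (limma adjusted p = 0.00826, and 0.113 without parental replicate 1). Their neighbours had medians of 0.35 and -0.37, in the direction of each carrier. The NAD carrier SLC25A51 fell by 0.24 (limma adjusted p = 0.000548), from 1405 and 1320.2 to 1176 and 1137 normalized counts. Of the 50-base words of SLC25A51, 21.1% occur in its near-copy SLC25A52, so its reads could be split. SLC25A17, a peroxisomal carrier of cofactors, had 3021 and 3166 against 3385 and 3228. Its rise of 0.10 (limma adjusted p = 0.0462) was lost without parental replicate 1 (0.419), parental replicate 2 (0.0757) or resistant replicate 1 (0.158). SLC25A26, which imports S-adenosylmethionine, had 452 and 424 against 456 and 535, with an adjusted p of 0.0874 by limma, or 0.00438 without resistant replicate 1.

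The iron and glutathione carriers are each a pair of paralogues, and in both pairs 1 gene rose and the other fell. Of all genes tested, 32.7% were higher and 34.2% lower. The falling genes, SLC25A37 and SLC25A39, lost their call against 1.2-fold and with a dispersion fixed at 0.01 (edgeR adjusted p = 0.227 and 0.241). Mitoferrin-2, SLC25A28 (chromosome 10, 99610522 to 99620609, minus strand), the broadly expressed importer of iron, had 814 and 811 against 1131 and 1312 normalized counts. It rose by 0.58 ± 0.07 (limma adjusted p = 1.35e-08), and 19 of its 20 neighbours were above 0 with a median of 0.62. Mitoferrin-1, SLC25A37, the form of red cell precursors, had 3751 and 3641 against 3097 and 3244 and fell by 0.22 ± 0.04 (limma adjusted p = 2.71e-05). Per kilobase the pair was even in parental libraries, with a ratio of SLC25A28 to SLC25A37 of 1.01 and 1.03, and uneven in resistant ones, at 1.69 and 1.88, a 1.75-fold change.

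Matrix glutathione, which cannot be made there, is imported by SLC25A39, and SLC25A40 is its close relative. SLC25A39 (chromosome 17, 44319625 to 44324870, minus strand) had 6237 and 6205 against 5312 and 5414 normalized counts and fell by 0.21 ± 0.03 (limma adjusted p = 4.62e-06). SLC25A40 (chromosome 7, 87833568 to 87876357, minus strand) had 992 and 998 against 1348 and 1404 and rose by 0.47 ± 0.06 (limma adjusted p = 3.51e-08). SLC25A39 remained the more abundant, but the ratio of SLC25A39 to SLC25A40 per kilobase went from 9.06 and 8.96 to 5.68 and 5.56. The neighbours of SLC25A39 had a median of -0.27 and those of SLC25A40 a median of 0.06.

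**Figure D3:**
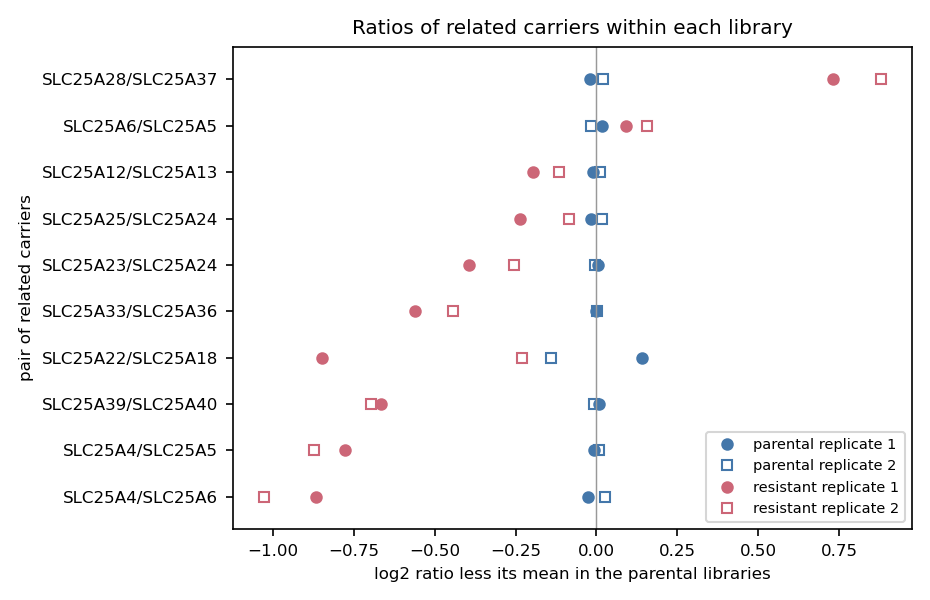
Log2 ratio of the levels per kilobase of 10 pairs of related carriers in each library, less its mean in the parental libraries (horizontal axis), with the pairs on the vertical axis. Blue points are parental and red points resistant libraries; the groups are separate in all 10 pairs, with changes from -0.95 for SLC25A4 to SLC25A6 up to 0.81 for SLC25A28 to SLC25A37.

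All 10 pairs of related carriers that could be measured had parental and resistant ratios that did not overlap. SLC25A4 against SLC25A6 changed by -0.95 in the log2 ratio, SLC25A28 against SLC25A37 by 0.81 and SLC25A39 against SLC25A40 by -0.68. The smallest change was that of SLC25A6 against SLC25A5, at 0.12. The groups were also separate in 82.1% of all single genes tested, and no share was computed for ratios of other gene pairs. The pairs share members too, so these counts describe the libraries and do not add independent tests.

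The largest differences of the family were in carriers of low level whose substrates are recent or unsettled knowledge. Of the 6 carriers without a place in the other groups, 5 rose and 1 fell, where 32.7% of all genes were higher and 34.2% lower. SLC25A48 (ENSG00000145832; chromosome 5, 135579202 to 135889770, plus strand), linked to choline uptake, had 10.6 and 5.96 normalized counts in parental and 150.4 and 158 in resistant libraries. The log2 fold change was 4.11 ± 0.28 (limma adjusted p = 6.32e-13). In recovered reads it had 17 in the parental and 305 in the resistant libraries together, an 18.6-fold ratio with an exact 95% interval of 11.4 to 32.3 for counting error alone. Even so SLC25A48 stayed among the least abundant carriers, at 18.4 normalized counts per kilobase in resistant cells. Of its 50-base exonic words 20.3% occur in other genes, and its 20 nearest genes had a median of 0.11.

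SLC25A34 (ENSG00000162461; chromosome 1, 15736405 to 15741396, plus strand), a carrier of unsettled substrate, had 33.8 and 21.9 against 129 and 125 normalized counts. It rose by 2.18 ± 0.23 on the log2 scale (limma adjusted p = 2.58e-09), and by 4.54-fold in recovered reads, with an exact 95% interval of 3.39 to 6.16. Its neighbours had a median of -0.23, with 6 of 20 above 0. SLC25A35, a close relative, had 109 and 107 against 197 and 211 and rose by 0.91 ± 0.14 (limma adjusted p = 1.74e-06). SLC25A35 shares 33.2% of its exonic bases with RANGRF on the opposite strand, so its counts are uncertain. SLC25A45 had 122 and 137 against 203 and 203 normalized counts and rose by 0.65 ± 0.13 (limma adjusted p = 0.000112), while 5 of its 20 neighbours were above 0.

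SLC25A46, which sits in the outer membrane and bears on mitochondrial fission, rose by 0.14 (limma adjusted p = 0.00309, and 0.0762 without parental replicate 1), from 3352 and 3401 to 3707 and 3714 normalized counts. SLC25A43, a carrier of unsettled substrate next to SLC25A5 on chromosome X, fell by 0.37 ± 0.06 (limma adjusted p = 3.33e-06), from 1161 and 1171 to 919.8 and 882. Of the 20 neighbours of SLC25A43, 16 were above 0, with a median of 0.13. Of the carriers that resemble uncoupling proteins, SLC25A30 fell by 0.50 ± 0.07 (limma adjusted p = 1.27e-06), from 739 and 758 to 556 and 503. SLC25A14 had 824 and 925 against 907 and 824 normalized counts and did not pass (limma adjusted p = 0.872).

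The sequences upstream of 4 carriers are shown because these carriers had some of the largest changes of the family. They are the 2 that rose most, SLC25A48 and SLC25A34, and the muscle isoform SLC25A4 and the acylcarnitine carrier SLC25A20, which fell. Each is the 250 bases before a RefSeq transcription start (GRCh38.p14), at chr5:135578922-135579171 (plus strand), chr1:15736008-15736257 (plus), chr4:185143016-185143265 (plus) and chr3:48898883-48899132 (minus), written on the gene's strand. In that order these starts lie 30, 147, 25 and 111 bases from the GENCODE gene start. The windows of SLC25A4 and SLC25A20 therefore reach into the gene as GENCODE places it. A further window of SLC25A48, at chr5:135834413-135834662, is not shown. Capitals mark matches to CAGCTG, the E-box bound by myogenic factors, to CACGTG, the E-box bound by MYC, to a core of the NRF1 site (GCGC, any 2 bases, GCGC), or to TGATGNAA, the ATF4 type of element.
SLC25A48: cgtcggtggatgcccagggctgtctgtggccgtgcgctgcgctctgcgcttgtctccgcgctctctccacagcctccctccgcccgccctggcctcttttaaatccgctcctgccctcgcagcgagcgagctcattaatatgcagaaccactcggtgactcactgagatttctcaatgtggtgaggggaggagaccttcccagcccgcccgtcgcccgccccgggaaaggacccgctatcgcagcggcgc
SLC25A34: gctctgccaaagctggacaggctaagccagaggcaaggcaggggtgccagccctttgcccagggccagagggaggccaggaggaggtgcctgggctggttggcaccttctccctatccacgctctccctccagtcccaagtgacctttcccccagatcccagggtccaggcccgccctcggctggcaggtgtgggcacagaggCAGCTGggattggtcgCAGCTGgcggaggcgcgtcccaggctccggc
SLC25A4: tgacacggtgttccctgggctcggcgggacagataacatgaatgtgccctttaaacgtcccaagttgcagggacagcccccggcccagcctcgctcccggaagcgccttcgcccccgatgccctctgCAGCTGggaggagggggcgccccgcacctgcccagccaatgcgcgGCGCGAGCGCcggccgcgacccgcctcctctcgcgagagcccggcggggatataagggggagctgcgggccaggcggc
SLC25A20: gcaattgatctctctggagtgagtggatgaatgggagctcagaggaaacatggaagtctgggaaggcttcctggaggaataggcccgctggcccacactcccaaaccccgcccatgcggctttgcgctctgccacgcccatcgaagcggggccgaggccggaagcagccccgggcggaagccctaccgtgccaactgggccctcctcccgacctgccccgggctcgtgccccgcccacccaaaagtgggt
The window of SLC25A34 has 2 matches to CAGCTG, a number reached in 1.27% of all 34961 RefSeq windows (445). The window of SLC25A4 has 1 match to CAGCTG and 1 to the NRF1 core. Those of SLC25A48 and SLC25A20 have none, which says only that these letters are not in these windows. Both strands were searched, and motifs could overlap.

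RefSeq windows were found for 35 of the carriers, 45 in all since some have several starts. CACGTG stood in 7 of the 45 (15.6%, against 6.35% of all windows), CAGCTG in 9 (20.0% against 14.0%), the NRF1 core in 5 (11.1% against 7.17%) and TGATGNAA in 1 (2.22% against 3.14%). A match is a description of letters, not a bound site, and windows of 1 gene can share sequence. Among those without a window were SLC25A16, SLC25A30, SLC25A32, SLC25A35 and SLC25A37.

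Carriers often moved with the genes beside them, as genes of the whole table did. The sign of the log2 fold change matched that of the median of the 20 nearest tested genes for 29 of the 41 carriers (70.7%), against 63.6% of 17759 genes, and for 23 of the 33 called ones (69.7%), against 67.7%. Across the carriers the correlation with the neighbours' median was 0.46 by Spearman's rho and 0.32 by Pearson's r. Without SLC25A48 and SLC25A34 it was 0.52 and 0.64 (39 carriers). These are descriptions across genes, which share libraries and, where they lie close, neighbours. SLC25A3, SLC25A28 and SLC25A23 lay near their neighbours' median. SLC25A48, SLC25A34, SLC25A45, SLC25A20, SLC25A15 and SLC25A43 lay far from it or on the other side of 0.

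**Figure D4:**
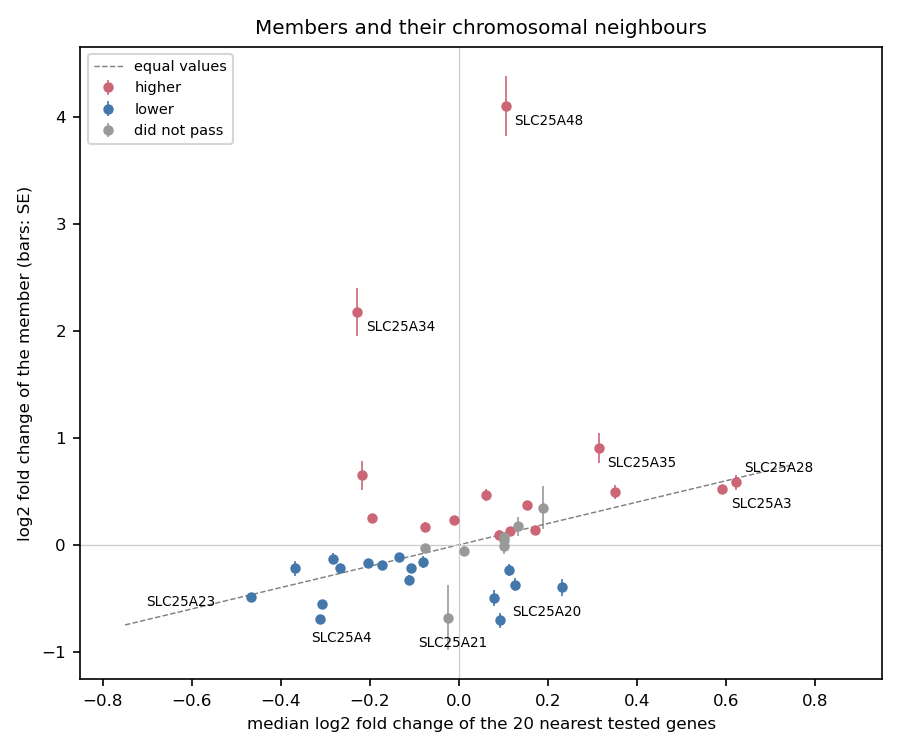
Log2 fold change of each of 40 carriers (vertical axis, bars are SE) against the median log2 fold change of its 20 nearest tested genes (horizontal axis), with the dashed line where both are equal. Red points were higher, blue lower and grey did not pass; SLC25A3 (0.52 against 0.59) and SLC25A23 (-0.49 against -0.47) lie by the line, while SLC25A48 and SLC25A34 lie far above it.

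Genes that work beside the carriers were looked up in 13 lists of 81 genes, of which 79 were tested. Of these 27 were higher, 30 lower and 22 did not pass, a share of 72.2% called, against 66.9% of all genes. Among all genes tested, 32.7% were higher and 34.2% lower, and the count of each list is read against these shares. Import of carriers into the inner membrane, which TIMM22 and its partners carry out, had 2 genes higher, 6 lower and 5 not past. TIMM22, the channel of that pathway, had 7184 and 7019 against 3589 and 3834 normalized counts and fell by 0.94 (limma adjusted p = 8.26e-18). TIMM29, a partner of TIMM22, fell by 0.60 and TOMM40, the outer membrane pore, fell by 0.34. Inner membrane carriers of other families had 3 higher, 1 lower and 3 not past, and SFXN2, a sideroflexin linked to iron, rose by 1.65 from 461 and 409.6 to 1399 and 1334. SFXN1, the mitochondrial serine carrier, rose by 0.43 and MPC1, a subunit of the pyruvate carrier, fell by 0.33. The family proteins that carry other symbols had 2 lower and 2 not past. These were MTCH1, an outer membrane protein that fell by 0.15, and the uncoupling protein UCP2, whose fall of 0.13 was lost without parental replicate 1 (limma adjusted p = 0.106) or parental replicate 2 (0.09).

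The counts of the lists that follow are read against all genes tested, of which 32.7% were higher and 34.2% lower. Among partners of single carriers, the calcium uniporter complex had 1 higher, 5 lower and 1 not past. The log2 fold changes were -0.63 and -0.55 for the gatekeepers MICU2 and MICU3. The outer membrane channels VDAC3 and VDAC2 rose by 0.47 and 0.38, and VDAC1 by 0.08, a call lost without parental replicate 1 (limma adjusted p = 0.158) or parental replicate 2 (0.233). Enzymes that use exported citrate had 2 higher, 3 lower and 1 not past, and ACLY, which splits citrate to acetyl-CoA in the cytosol, rose by 0.76 from 15945 and 16089 to 26891 and 27365 normalized counts, while SLC25A1 did not pass. Malate-aspartate shuttle enzymes had 2 higher, 1 lower and 1 not past, with GOT1, the cytosolic transaminase, up by 0.46. The carnitine shuttle had 1 higher, 2 lower and 2 not past.

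Ornithine and proline enzymes had 3 higher, 1 lower and 2 not past. ARG2, the mitochondrial arginase, rose by 1.56 from 143 and 143 to 466 and 384 normalized counts, while the ornithine carrier SLC25A15 fell. ALDH18A1, the first enzyme of proline synthesis, rose by 0.46 and PYCR1, the last, fell by 0.32. Mitochondrial glutamate and glutamine enzymes had 2 higher and 2 not past, with GLUD1, glutamate dehydrogenase, up by 0.36 and GLS2, a glutaminase, by 1.21. Iron-sulfur cluster and heme enzymes, the users of mitoferrin's iron, had 3 higher, 4 lower and 1 not past. ISCU, the scaffold on which clusters form, rose by 0.53 and LYRM4, a partner of the cysteine desulfurase, fell by 0.81. Regulators of mitochondrial biogenesis had 4 higher, 1 lower and 2 not past, with the coactivator PPRC1 up by 0.64, TFAM, which packages mitochondrial DNA, by 0.56 and GABPA by 0.43, while the nuclear receptor ESRRA fell by 0.24. Of the genes named from these lists, PYCR1, ESRRA, MPC1, CPT1C, CPT1A, MTCH1, UCP2 and VDAC1 lost their call both with a dispersion fixed at 0.01 and against 1.2-fold (for PYCR1, adjusted p = 0.0613 by edgeR and 0.11 by limma treat). UCP2 also lost it under DESeq2 (adjusted p = 0.0545) and with values scaled to the same total (0.0546 by limma), and VDAC1 with the replicate block (0.0508 by limma).

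The authors' deposited table of fold changes and adjusted p-values gave 14 carriers higher, 15 lower and 12 not past at the same threshold. Its call was the same for 37 of the 41 carriers. In the authors' deposited table SLC25A17 (0.133), SLC25A33 (0.125), SLC25A42 (0.0645) and SLC25A10 (0.108) did not pass.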

How the data were processed

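Polyadenylated RNA of 2 parental and 2 vincristine-resistant RD libraries was compared, with groups and replicate numbers from the sample titles. Reads were handled with bcl2fastq 2.17, STAR 2.5.2b, featureCounts (Subread 1.5.2), DESeq2 and GRCh38, per the submitters' processing notes. The annotation is not given in the sources used, nor is the strand setting. The deposited values are a signal of normalized counts, each gene count divided by a library's size factor (1.03 and 1.01 in parental, 0.924 and 1.05 in resistant libraries), and 100% of them were whole multiples of 1 step within 0.01. The authors' log2 fold change and p-value columns were used only to compare calls.

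The log2 of the value plus 1 was fitted on group with limma 3.58.1 (R 4.3.3, lmFit and eBayes with trend) for the 18330 genes that reached 10 in 2 or more libraries, and adjusted by Benjamini-Hochberg over all of them at 0.05. Log2 fold changes of low genes are understated by the pseudocount. The scripts were tested on simulated data. Alternatives were edgeR 4.0.16 and DESeq2 1.42.0 on recovered reads, limma treat, other pseudocounts, filters and scalings, the replicate number as a block, each library left out in turn and subtraction of the neighbours' median. The order by longest coding transcript was added after seeing the data. Lengths, overlaps and positions are from GENCODE 29. The intervals of read ratios are exact 95% binomial ones and cover counting error only, since reads are not independent molecules. Libraries of a group differed by more than sampling noise (chi-square per gene 1.61 and 4.04).

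The members and lists were chosen with earlier results of these data known. By the rule for names, every carrier could be named. Library values were given for the 8 largest and 8 smallest changes among called carriers whose higher group averaged 100 or more, for the pairs, and for the most abundant carrier of each group. Up to 4 genes of each other list were named by smallest adjusted p. Values of further carriers were added after they were seen. Some genes that the rule takes are left unnamed and are not shown, but stay in the counts.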

Additional observations from a re-analysis of the deposited data

How the results depend on the processing

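The 15 higher and 18 lower carriers became 9 and 8 under edgeR with a dispersion of 0.01, and 9 and 6 under limma treat against 1.2-fold. The count at 2-fold was 3, and 1 at a mean of at least 100. The median log2 fold change of the SLC25 members, -0.03, was -0.0577 at a mean of at least 100, 0.00277 with values scaled to the same total and 0.00513 less the neighbours' median. With 1 library left out, counts ran from 11 to 16 higher, 14 to 18 lower and 3 to 4 at 2-fold, and the median log2 fold change of the SLC25 members ran from -0.0625 to -0.0260. Scaling to the same total gave 17 higher and 15 lower, and DESeq2 14 and 15. With the replicate block 14 were higher and 19 lower: SLC25A17 was lost (limma adjusted p = 0.0607) and SLC25A21 gained (0.0352). Same-numbered libraries did not deviate together (correlation -0.03), so the numbers are not taken as pairs. Less the neighbours' median, the sign turned for, among others, SLC25A28 (-0.0387), SLC25A3 (-0.0694), SLC25A46 (-0.0355), SLC25A44 (0.0190), SLC25A33 (0.15), SLC25A24 (0.0397), SLC25A39 (0.0541), and SLC25A42 (0.15); the cause was not tested. Of 33 called carriers, 15 kept the call in every alternative fit, 12 of them also with the same sign less the neighbours, and 8 lost it with a library left out. None of 60 recomputed pair ratios turned direction. The groups were separate in every pair, so leaving out 1 library could not have turned a ratio, and no conclusion is drawn from this. Of 336 recomputed counts of the other lists, 46 moved by over 1.5 times. Depth limits SLC25A48, SLC25A34, SLC25A21 and SLC25A18, and 2 libraries a group limit the rest.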
